A study of Arabidopsis thaliana with 8 samples.

Results

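GH9B8, GH9C1 and GH9C2 are Arabidopsis thaliana genes for enzymes of glycosyl hydrolase family 9 (GH9), the plant endoglucanases that cut beta-1,4-linked glucan chains of the cell wall. They were chosen by name from the probe sets tied to 1 gene, after their differences between genotypes in these same arrays were known, and they are 3 of the 15 GH9 genes with a probe set of their own among 22746 tested probe sets. Their values are therefore given as a description, with standard errors and without p-values, and the values that chose them were their differences over all 4 genotypes.

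RNA came from whole seedlings, with 2 arrays from separate biological replicates for each genotype. The genotypes were the gbf1 hy5 double mutant, the gbf1 hyh double mutant, the gbf1 single mutant and wild type of the Col-0 ecotype, so all mutants shared the gbf1 lesion. The seeds were kept for 4 days at 4 °C on plates with 1% sucrose and then moved to 22 °C, and seedlings were taken at an age of 4 days under continuous white light of 20 µmol m-2 s-1. The labels give no allele for any mutant and an ecotype for wild type alone, so genetic background and mutation cannot be told apart.

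The 3 mutated genes encode transcription factors of the bZIP class, which bind G-box and related DNA elements and act when seedlings adapt to light. HY5 promotes light-dependent development, HYH is its closest relative, and GBF1 acts in the same light response. Plant GH9 enzymes fall into 3 classes. Class A enzymes are anchored in a membrane and include KORRIGAN, which takes part in cellulose synthesis. Class B enzymes, such as GH9B8, are secreted. Class C enzymes, such as GH9C1 and GH9C2, carry in addition a carbohydrate-binding module at the C-terminal end. GH9C1 has been linked to root hair and endosperm development, and GH9C2 to the crystallinity of cellulose.

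Values are log2 array signals relative to the median of the same probe set over the 8 arrays. They show differences between arrays for 1 gene and hold no expression level, so no gene is set against another in level and the presence of defining tissue markers could not be checked. Of the mutated genes only HYH was followed, since GBF1 and HY5 have no probe set tied to them alone in the table used here. HYH was lowest on the gbf1 hyh arrays (-2.03 and -1.78), next on the gbf1 hy5 arrays (-1.01 and -0.85), and above both on the gbf1 arrays (1.69 and 1.94) and the wild type arrays (1.08 and 0.85). Over 18 spike-in controls the mean reached 1.499 on replicate 2 of gbf1 hyh and 1.79 on replicate 2 of gbf1, against -0.52 to 0.27 on the other 6 arrays. Replicate arrays of a genotype differed with an SD over all probe sets of 0.239 in gbf1 hy5, 0.350 in gbf1 hyh, 0.366 in gbf1 and 0.236 in wild type.

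GH9B8 (AT2G32990), a secreted class B endoglucanase gene, stood high in gbf1 hy5 seedlings. Its log2 signal was 1.46 and 1.73 on the gbf1 hy5 arrays, -0.31 and -0.027 on the gbf1 hyh arrays, 0.16 and 0.027 on the gbf1 arrays, and -0.36 and -0.39 on the wild type arrays. Both gbf1 hy5 arrays lay more than 1 log2 unit above the other 6 arrays, which spanned from -0.39 to 0.16. The mean was 1.599 ± 0.192 (SD, n = 2) in gbf1 hy5 and -0.38 ± 0.024 in wild type, a difference of 1.98 (SE 0.162), or 3.93-fold.

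**Figure D1:**
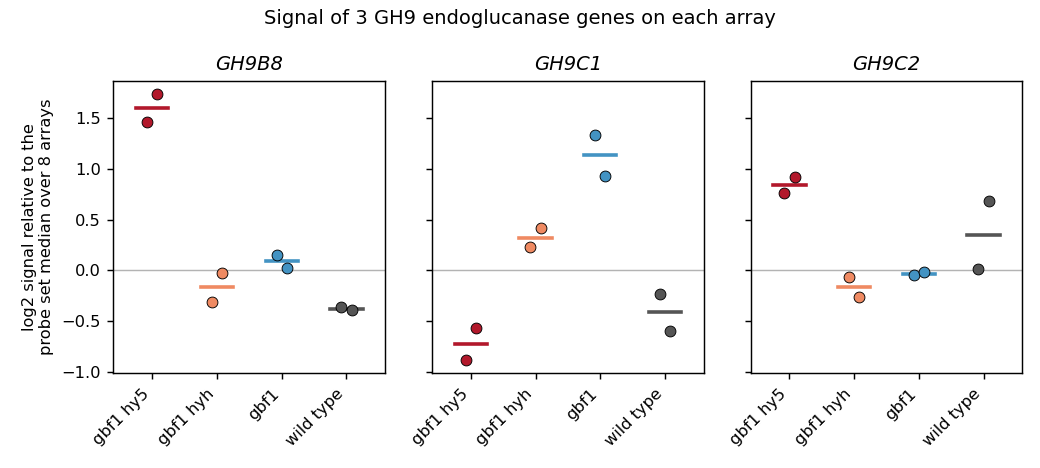
Log2 signal of GH9B8, GH9C1 and GH9C2 relative to the median of each probe set over 8 arrays (vertical axis) in the gbf1 hy5, gbf1 hyh, gbf1 and wild type genotypes. Each point is 1 array and each bar the mean of 2. GH9B8 was highest in gbf1 hy5 (1.46 and 1.73), GH9C1 in gbf1 (1.34 and 0.93), and the wild type arrays of GH9C2 lay apart (0.015 and 0.69).

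Against the gbf1 single mutant, GH9B8 was higher by 1.51 (SE 0.162, 2.84-fold) in gbf1 hy5, and against gbf1 hyh by 1.77 (SE 0.162, 3.40-fold). The order of the means was gbf1 hy5, gbf1, gbf1 hyh and wild type. Among the last 3, GH9B8 differed by -0.26 (SE 0.162) between gbf1 hyh and gbf1, by 0.21 (SE 0.162) between gbf1 hyh and wild type, and by 0.47 (SE 0.162) between gbf1 and wild type. In size, the GH9B8 difference of gbf1 hy5 from wild type was the 15th highest of the 22746 probe sets, and its difference from gbf1 the 75th highest. With the 2 high spike-in arrays left out, the difference of gbf1 hy5 from gbf1 was 1.44 and that from gbf1 hyh 1.91.

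GH9C1 (AT1G48930), a class C endoglucanase gene, stood high in gbf1 seedlings and low in gbf1 hy5 and wild type seedlings. Its log2 signal was -0.88 and -0.57 on the gbf1 hy5 arrays, 0.23 and 0.42 on the gbf1 hyh arrays, 1.34 and 0.93 on the gbf1 arrays, and -0.23 and -0.60 on the wild type arrays. Both gbf1 arrays lay above all others, both gbf1 hyh arrays came next, and the gbf1 hy5 and wild type arrays overlapped. The mean was 1.13 ± 0.286 (SD, n = 2) in gbf1 and -0.41 ± 0.263 in wild type, a difference of 1.55 (SE 0.202), or 2.92-fold.

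In gbf1 hy5, GH9C1 averaged -0.73 ± 0.222 (SD, n = 2) against 1.13 in gbf1, a difference of -1.86 (SE 0.202), so that the gbf1 signal was 3.63 times the gbf1 hy5 signal. In gbf1 hyh it averaged 0.32 ± 0.133, lower than in gbf1 by 0.81 on the log2 scale (a difference of -0.81, SE 0.202) and higher than in wild type by 0.74 (SE 0.202, 1.67-fold). The difference between gbf1 hy5 and gbf1 hyh was -1.05 (SE 0.202). Between gbf1 hy5 and wild type the difference was -0.31 (SE 0.202), with overlapping arrays, and it was -0.13 without wild type replicate 1. Its difference between gbf1 hy5 and gbf1 was the 75th lowest of all probe sets. With the high spike-in arrays left out, GH9C1 differed by -1.11 between gbf1 hyh and gbf1 and by 1.75 between gbf1 and wild type.

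GH9C2 (AT1G64390), the other class C gene of the set, was highest in gbf1 hy5, with a smaller span than the other two. Its log2 signal was 0.77 and 0.92 on the gbf1 hy5 arrays, -0.064 and -0.26 on the gbf1 hyh arrays, -0.047 and -0.015 on the gbf1 arrays, and 0.015 and 0.69 on the wild type arrays. The gbf1 hyh and gbf1 arrays lay together at the bottom. Of the wild type arrays, replicate 1 lay beside these and replicate 2 close to gbf1 hy5.

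The mean of GH9C2 was 0.84 ± 0.109 (SD, n = 2) in gbf1 hy5, -0.16 ± 0.141 in gbf1 hyh, -0.031 ± 0.022 in gbf1 and 0.35 ± 0.475 in wild type. It was higher in gbf1 hy5 than in gbf1 hyh by 1.01 (SE 0.212, 2.01-fold) and than in gbf1 by 0.87 (SE 0.212, 1.83-fold). The gbf1 hyh and gbf1 means differed by -0.13 (SE 0.212). Every comparison of GH9C2 with wild type turned on which wild type array was used. The gbf1 hy5 difference of 0.49 (SE 0.212) was 0.83 without wild type replicate 2 and 0.16 without wild type replicate 1. That SE pools the spread over all genotypes, so it does not show the wider spread of the wild type arrays. The gbf1 hyh difference of -0.51 became -0.18 and -0.85 in the same order, and the gbf1 difference of -0.38 became -0.046 and -0.72.

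The 3 genes did not share 1 pattern. In gbf1 hy5 against gbf1, which shows seedlings with the added hy5 lesion beside the single mutant, GH9B8 (1.51) and GH9C2 (0.87) were higher and GH9C1 (-1.86) lower. In gbf1 hyh against gbf1, which does the same for hyh, the values were -0.26 for GH9B8, -0.81 for GH9C1 and -0.13 for GH9C2. These comparisons share the gbf1 arrays. HYH itself was lower in gbf1 hy5 than in gbf1 (-2.75, limma adjusted p = 4.95e-05), so the loss of HY5 and a lower HYH signal cannot be told apart in that comparison.

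A probe set was called when its limma test, with Benjamini-Hochberg adjustment over all probe sets, gave an adjusted p under 0.05. Because these comparisons chose the genes, the counts of calls describe the choice. In gbf1 hy5 against gbf1 hyh all 3 genes met that threshold (2.77% of all probe sets did). In gbf1 hy5 against gbf1 2 did, GH9B8 and GH9C1 (4.45% of all), in gbf1 hy5 against wild type 1, GH9B8 (2.18%), and in gbf1 against wild type 1, GH9C1 (0.418%). None of the 3 met it in gbf1 hyh against wild type (1.28%) or against gbf1 (2.51%). Arrays that do not overlap are common with 2 per genotype. Both arrays of one genotype lay on one side of both arrays of the other for 2 of the 3 genes in gbf1 hy5 against wild type (46.5% of all probe sets). They did so for all 3 in gbf1 hyh against wild type (40.4%), gbf1 against wild type (36.8%), gbf1 hy5 against gbf1 (45.4%), gbf1 hyh against gbf1 (38.3%) and gbf1 hy5 against gbf1 hyh (44.1%).

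The other 12 GH9 genes with probe sets of their own were the class A genes GH9A3 and GH9A4, the class B genes GH9B5, GH9B6, GH9B7, GH9B11, GH9B12, GH9B13, GH9B16, GH9B17 and GH9B18, and the class C gene GH9C3. None of the 12 was called by limma in any of the 6 comparisons, while 7.2% of all probe sets were called in at least 1. With only 12 genes, 0 calls lies near that share. At an unadjusted limma p under 0.05 there was 1 of the 12 in gbf1 hyh against wild type and 2 in gbf1 hy5 against gbf1. There was 1 each in gbf1 hyh against gbf1 and gbf1 hy5 against gbf1 hyh, and 0 in gbf1 hy5 or gbf1 against wild type. The share of all probe sets at that unadjusted threshold was not counted, so these counts cannot be read as many or few. The range over the 8 arrays was 2.13 for GH9B8, 2.22 for GH9C1 and 1.18 for GH9C2. For the other 12 it ran from 0.220 in GH9B6 to 0.844 in GH9B13, with a median of 0.447, against a median of 0.604 for all probe sets. GH9B8, GH9C1 and GH9C2 were chosen for their differences. Both the lack of calls and the smaller ranges among the other 12 partly follow from that choice.

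**Figure D2:**
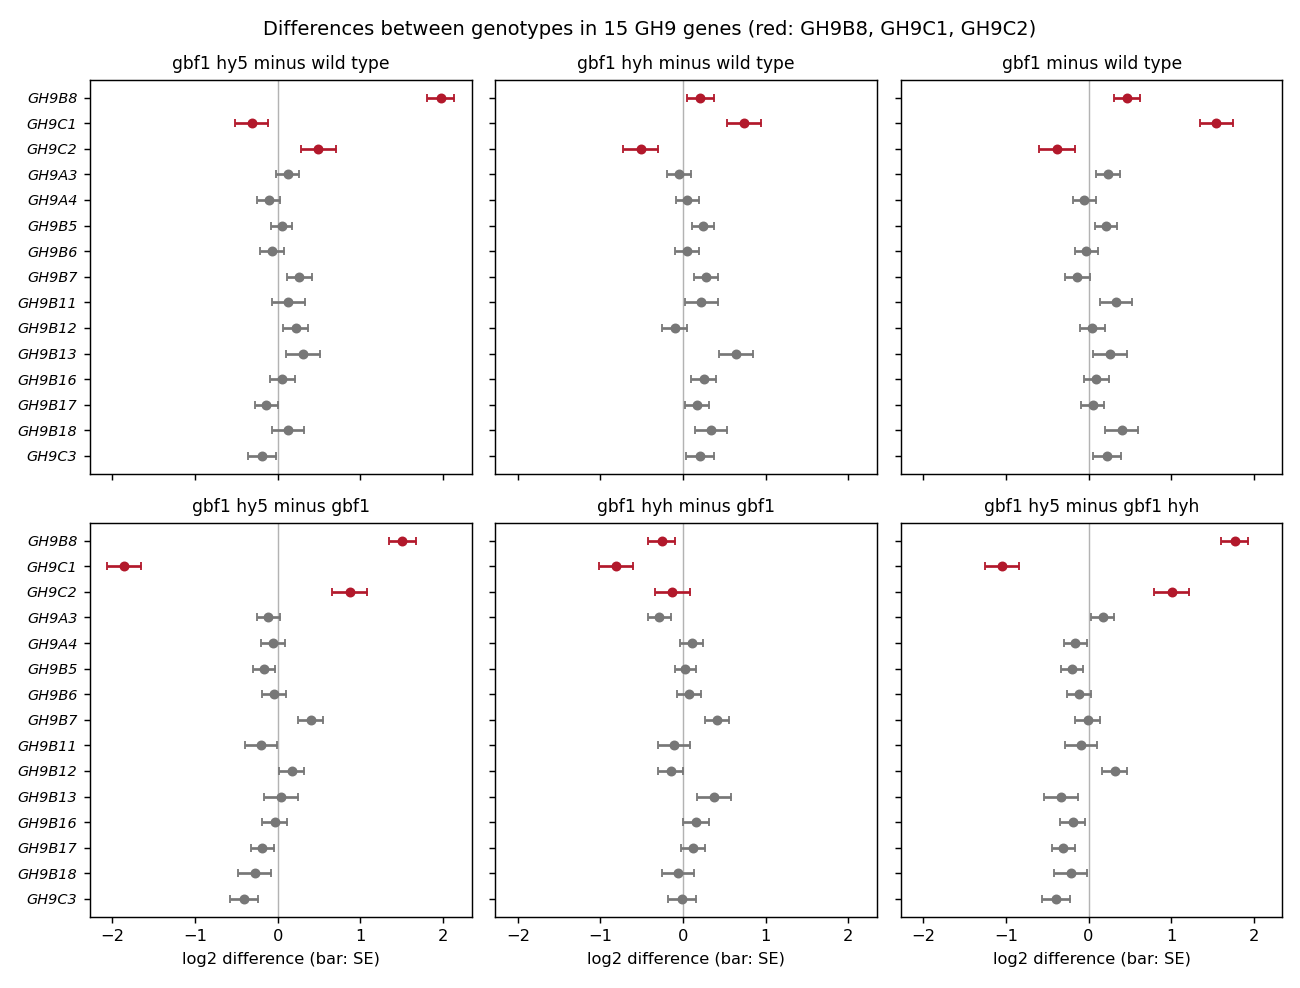
Log2 difference (horizontal axis, bars ± SE) for 15 GH9 genes in 6 comparisons of genotypes, each the first named genotype minus the second. GH9B8, GH9C1 and GH9C2 are in red and were chosen for these differences. The 12 other genes, in grey, stay between -0.41 and 0.64.

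Among the 12, the class B gene GH9B13 had the largest difference, 0.64 (SE 0.205, adjusted p = 0.265 by limma) in gbf1 hyh against wild type. Its signal was 0.29 and 0.46 on the gbf1 hyh arrays and -0.39 and -0.14 on the wild type arrays. GH9C3, the remaining class C gene, was at -0.27 and -0.39 in gbf1 hy5, against -0.036 and 0.20 in gbf1, a difference of -0.41 (SE 0.169, adjusted p = 0.252 by limma). GH9B7 was at 0.18 and 0.058 in gbf1 hy5, against -0.34 and -0.22 in gbf1, a difference of 0.40 (SE 0.147, adjusted p = 0.193 by limma). None of these 3 differences passed the test.

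The median difference of the 12 other GH9 genes was 0.089 in gbf1 hy5, 0.21 in gbf1 hyh and 0.15 in gbf1 against wild type, beside medians of 0.024, 0.030 and 0.0058 over all probe sets. Against gbf1 it was -0.085 in gbf1 hy5 and 0.050 in gbf1 hyh, beside 0.012 and 0.021, and in gbf1 hy5 against gbf1 hyh it was -0.18, beside -0.0069. A further 2 probe sets each match a pair of GH9 genes and cannot tell them apart. The one for GH9B14 and GH9B15 spanned from -0.21 to 0.39 and the one for GH9B9 and GH9B10 from -0.095 to 0.22 over the 8 arrays. The other 6 of the 25 GH9 genes sought, KORRIGAN (GH9A1) among them, were not analysed here.

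Root hair genes were set beside GH9C1, whose known role lies partly in root hairs. Of 36 genes listed for root hairs, 4 had a probe set of their own: the root hair expansin genes EXPA7 and EXPA18, the xyloglucan-modifying gene XTH26 and the cellulose synthase-like gene CSLD2. The signal of EXPA18 was -0.30 and -0.34 in gbf1 hy5, 0.30 and 0.66 in gbf1 hyh, 1.37 and 1.41 in gbf1, and -0.50 and -0.68 in wild type. As with GH9C1, both gbf1 arrays were highest and both gbf1 hyh arrays came next. EXPA18 rose in gbf1 (1.98, SE 0.161, adjusted p = 0.00173 by limma) and in gbf1 hyh (1.08, adjusted p = 0.0146) against wild type. It fell in gbf1 hy5 against gbf1 (-1.71, adjusted p = 0.000659), and its lower values in gbf1 hyh against gbf1 (-0.91, adjusted p = 0.0215) and in gbf1 hy5 against gbf1 hyh (-0.80, adjusted p = 0.0332) also passed. The call in gbf1 hyh against wild type ended in 3 of the 8 fits that left out 1 array, the call in gbf1 hyh against gbf1 in 7, and the call in gbf1 hy5 against gbf1 hyh in 5. All 3 calls also ended in the compared genotypes alone (limma adjusted p = 0.0634, 0.178 and 0.0871 in that order) and with a trended and robust prior (0.0965, 0.11 and 0.152). The call in gbf1 hyh against gbf1 ended as well after quantile normalisation (limma adjusted p = 0.0689) and with array weights (0.0573), and that in gbf1 hy5 against gbf1 hyh with the high spike-in arrays left out (-0.63, adjusted p = 0.0905).

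**Figure D3:**
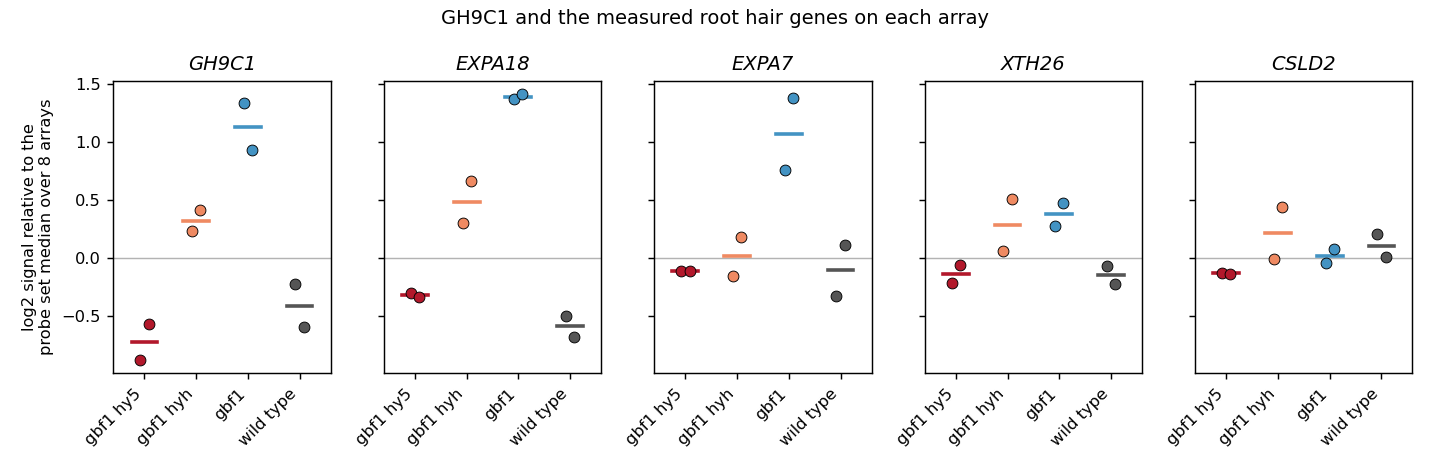
Log2 signal relative to the median of each probe set over 8 arrays (vertical axis) for GH9C1 and the 4 measured genes of the root hair list. Each point is 1 array and each bar the mean of 2. EXPA18 and EXPA7, like GH9C1, were highest on the gbf1 arrays, while CSLD2 spanned from -0.14 to 0.44.

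EXPA7 was at -0.11 and -0.11 in gbf1 hy5, -0.16 and 0.18 in gbf1 hyh, 0.76 and 1.38 in gbf1, and -0.33 and 0.11 in wild type. It fell in gbf1 hy5 against gbf1 (-1.18, SE 0.235, adjusted p = 0.0246 by limma), a call lost in 3 of the 8 leave-one-out fits, in the compared genotypes alone (adjusted p = 0.055) and with the trended and robust prior (0.0513). Its 1.18 in gbf1 against wild type did not pass (limma adjusted p = 0.0933). XTH26 and CSLD2 passed in no comparison. For XTH26 the differences were -0.51 in gbf1 hy5 against gbf1 and 0.52 in gbf1 against wild type, and for CSLD2 -0.15 and -0.087. Of the 4 root hair genes 2 thus fell in gbf1 hy5 against gbf1, where 4.45% of all probe sets were called, with a median of -0.85 against 0.012 for all probe sets. In gbf1 against wild type 1 of the 4 rose, where 0.418% of all were called, with a median of 0.85 against 0.0058. This list, like the other lists here, was chosen with earlier results of these arrays known. Its adjusted p-values and shares of calls therefore partly describe that choice. In whole seedlings, a different number of root hairs and a different amount of RNA per root hair cannot be told apart. Whether either differed between genotypes, and the part of either in the GH9C1 values, was not tested. No gene of the list for root endodermis and stele had a probe set of its own. The 3 measured stomatal genes, FAMA, MUTE and SPCH, passed in no comparison and had differences from -0.72 to 0.56.

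Expansins loosen walls without cutting glucan chains. Their list, which also holds expansin-like genes, had the most calls among the wall lists. EXPA7 and EXPA18 are on it as well as on the root hair list, so their calls are counted in both lists. Of 18 measured, the numbers that rose and fell were 1 and 1 in gbf1 hy5, in gbf1 hyh and in gbf1 against wild type, 1 and 2 in gbf1 hy5 against gbf1, 0 and 2 in gbf1 hyh against gbf1, and 1 and 1 in gbf1 hy5 against gbf1 hyh. That is 11.1% of the list in every comparison apart from gbf1 hy5 against gbf1, where it is 16.7%, beside the shares of all probe sets given above. Both calls in gbf1 hy5 against wild type were of expansin-like genes, EXLB1 and EXLA3. The medians of the 18 differences lay between -0.18 and 0.056.

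EXLB1, an expansin-like gene, was high on the gbf1 hy5 arrays, as GH9B8 was. Its signal was 1.61 and 1.54 in gbf1 hy5, -0.033 and 0.49 in gbf1 hyh, -0.20 and -0.27 in gbf1, and 0.033 and -0.21 in wild type. Both gbf1 hy5 arrays lay more than 1 log2 unit above the other 6. EXLB1 rose in gbf1 hy5 by 1.67 (SE 0.189, adjusted p = 0.00286 by limma) against wild type, by 1.81 (adjusted p = 0.00115) against gbf1 and by 1.35 (adjusted p = 0.00653) against gbf1 hyh. Its call against wild type was lost in 1 of the 8 leave-one-out fits and its call against gbf1 hyh in 2.

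EXLA3, another expansin-like gene, differed instead between wild type and every mutant. Its signal was -0.062 and -0.27 in gbf1 hy5, -0.19 and -0.11 in gbf1 hyh, 0.062 and 0.17 in gbf1, and 0.95 and 1.23 in wild type. Against wild type it fell in all mutants, with differences of -1.25 (SE 0.157, adjusted p = 0.00426 by limma) for gbf1 hy5, -1.24 (adjusted p = 0.00692) for gbf1 hyh and -0.97 (adjusted p = 0.042) for gbf1. The call in gbf1 was lost in all 8 leave-one-out fits, in the compared genotypes alone (limma adjusted p = 0.154), with the trended and robust prior (0.211), with array weights (0.0564) and with the high spike-in arrays left out (0.0688). Leave-one-out fits lost the call in gbf1 hy5 in 2 cases and that in gbf1 hyh in 1. The beta-expansin gene EXPB3 fell in gbf1 hyh against gbf1 (-1.13, SE 0.193, adjusted p = 0.0189 by limma), with arrays at -0.901 and -0.41 in gbf1 hyh and 0.47 and 0.49 in gbf1. The EXPB3 call was lost in 2 of the 8 leave-one-out fits, after quantile normalisation (limma adjusted p = 0.0565) and in the compared genotypes alone (0.145).

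Xyloglucan is a wall glucan that binds to cellulose microfibrils. Of 15 measured genes for its synthesis or remodelling, 1 (6.67%) fell in gbf1 hy5 against wild type, where 2.18% of all probe sets were called, and 1 (6.67%) in gbf1 hy5 against gbf1, where 4.45% were. None was called in the other 4 comparisons, where 3 or 5 genes each had an unadjusted p under 0.05 in the limma fit. Here too the share of all probe sets at the unadjusted threshold was not counted. XTH26 is among the 15 and also on the root hair list. CSLC4, which encodes a synthase of the xyloglucan backbone, was at -0.64 and -0.44 in gbf1 hy5, -0.54 and 0.026 in gbf1 hyh, -0.026 and 0.43 in gbf1, and 0.78 and 0.93 in wild type. All mutant arrays lay below both wild type arrays. Against wild type CSLC4 fell by 1.40 in gbf1 hy5 (SE 0.222, adjusted p = 0.0147 by limma), and its differences of -1.11 in gbf1 hyh (adjusted p = 0.053) and -0.65 in gbf1 (adjusted p = 0.398) did not pass. XTH32, a xyloglucan endotransglucosylase gene, was at -1.304 and -0.67 in gbf1 hy5, -0.12 and 0.22 in gbf1 hyh, 0.44 and 0.86 in gbf1, and -0.13 and 0.12 in wild type. In gbf1 hy5 XTH32 fell by 1.64 against gbf1 (SE 0.241, adjusted p = 0.0063 by limma), while its -1.04 against gbf1 hyh (adjusted p = 0.0605) and -0.98 against wild type (adjusted p = 0.0845) did not pass. Leaving out 1 array ended the call of CSLC4 in 4 of 8 fits and that of XTH32 in 1. Neither of these genes shared the direction of GH9B8 and GH9C2 in gbf1 hy5.

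**Figure D4:**
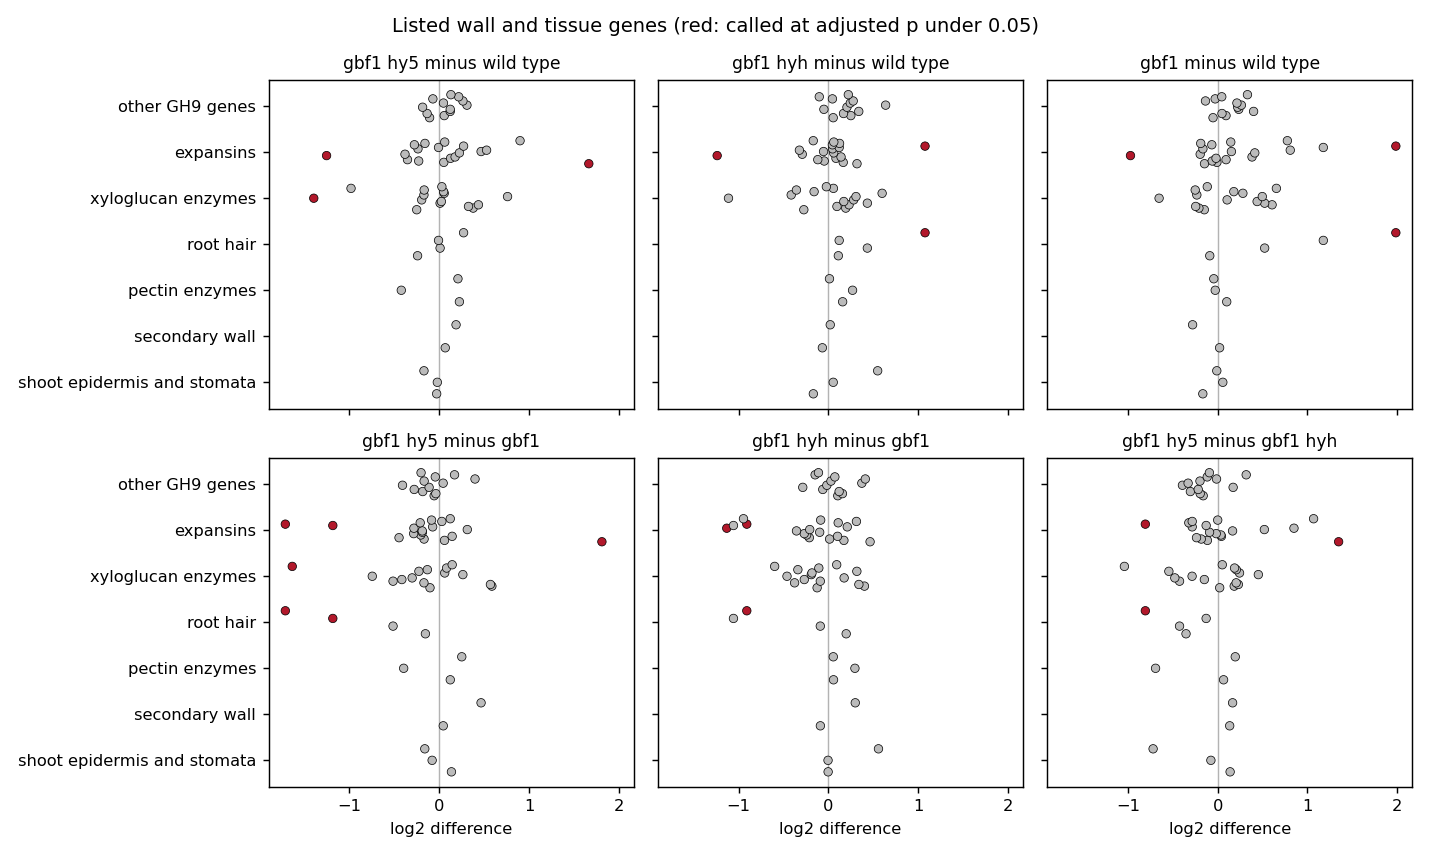
Log2 difference (horizontal axis) of each measured gene of 7 lists in 6 comparisons, each the first named genotype minus the second. Red points met an adjusted p under 0.05 in the limma fit over all probe sets. No point of the other GH9 genes is red, and the expansins hold 2 or 3 called genes in every panel. EXPA7 and EXPA18 are drawn under both the expansins and the root hair list. XTH26 is drawn under both the xyloglucan enzymes and the root hair list.

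The 3 measured pectin genes (ADPG1, GAUT15 and PME35) and the 2 measured secondary wall genes (IRX10 and IRX15) were called in no comparison. Their differences ran from -0.69 to 0.30 and from -0.28 to 0.47. No cellulose synthesis gene of the list had a probe set of its own. Over all 54 listed genes, which leave out GH9B8, GH9C1 and GH9C2, 3 were called in gbf1 hy5, 2 in gbf1 hyh and 2 in gbf1 against wild type, 4 in gbf1 hy5 against gbf1, 2 in gbf1 hyh against gbf1 and 2 in gbf1 hy5 against gbf1 hyh. These are 5.56%, 3.70%, 3.70%, 7.41%, 3.70% and 3.70% of the 54, beside 2.18%, 1.28%, 0.418%, 4.45%, 2.51% and 2.77% of all probe sets in the same order.

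For each of the 3 genes, the probe sets with the most similar course over the 8 arrays were found by Pearson correlation among 13512 other probe sets tied to 1 gene. The correlation compares shape and not size, rests on 8 arrays that fall into 4 genotypes, and is given as a description. For GH9B8 the nearest were SP1L3, a SPIRAL1-like gene (r = 0.981), AT5G10770 (r = 0.971), AT5G19890 (r = 0.963), AT4G33140 (r = 0.961) and AT5G12460 (r = 0.957). AT5G10770 spanned 1.92 over the arrays, near the 2.13 of GH9B8, with 1.56 and 1.54 in gbf1 hy5 and -0.36 and -0.11 in wild type. SP1L3 spanned 0.358, with 0.22 and 0.305 in gbf1 hy5 and -0.019 and -0.011 in wild type.

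For GH9C1 the nearest were AT4G31890 (r = 0.965), AT4G18425 (r = 0.956), AT2G41040 (r = 0.953), AT2G45750 (r = 0.951) and the MADS-box gene AGL57 (r = 0.950). AT2G45750 had the widest span of the 5, 1.396, with 0.66 and 0.601 in gbf1 and -0.23 and -0.59 in wild type. For GH9C2 the nearest were AT4G26230, AT4G39840, AT1G74055, AT3G63240 and AT4G16750, with r from 0.936 to 0.947. None of the 5 genes nearest to GH9C2 spanned more than 0.586 over the arrays, against 1.18 for GH9C2. No GH9 gene and no listed wall gene was among these 15.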

How the data were processed

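Per the series design text, the authors processed 8 Affymetrix arrays with the RMA algorithm in GeneSpring, and RMA is also named per the submitters' processing notes. The authors' deposited values were taken as log2 signals, a base not stated in the sources used here. Each probe set's deposited log2 values have a median of 0 over the arrays, within 1e-06, so no level and no filter on dim probe sets could be used. Of 22810 probe sets, 64 controls were left out. GEO's platform annotation ties 13513 of the tested 22746 to 1 gene, and names were updated through a reference gene table of TAIR10.1. Per the labels, the replicates are biological.

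A model of 4 genotype means was fitted to all 8 arrays with limma 3.58.1 in R 4.3.3, without a replicate block (4 residual and 5.124 prior degrees of freedom). Each SE is the moderated one of this fit. It pools the spread over the 4 genotypes and is drawn towards the spread of all probe sets. Adjusted p-values are Benjamini-Hochberg over 22746 probe sets. The fit was checked on simulated data with independent noise on each array, which cannot show how stable the calls in these arrays are. The number of arrays limits the precision.

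The genes, the 9 lists and the alternatives were chosen with earlier results of these data known. Named beside the 3 genes were HYH, the other GH9 genes, up to 3 called genes of each list and comparison, and the 5 most correlated genes. The other genes named are all measured members of short lists. Alternatives were a replicate block, quantile normalisation, fits of the compared genotypes, left-out arrays, a trended robust prior, array weights and rank correlation. Promoter and protein sequences were not analysed here. The pairs of same-numbered replicates deviated together with correlations from -0.11 to 0.34. The 0.34 was between gbf1 and gbf1 hyh, whose replicate 2 arrays had the high spike-in signal, and no other pair exceeded 0.092. The main fit did not take the numbers as pairs, and the replicate block was an alternative.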

Additional observations from a re-analysis of the deposited data

How the results depend on the processing

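The direction of all 18 differences of GH9B8, GH9C1 and GH9C2 stayed as reported after quantile normalisation, with each array left out in turn and with both arrays of high spike-in signal left out. Of the 36 values under quantile normalisation or without the high spike-in arrays, 33 moved by less than the SD between replicates. The other 3 were GH9B8 in gbf1 hy5 against gbf1 (1.33 after quantile normalisation) and, without the high spike-in arrays, gbf1 hyh against gbf1 for GH9B8 (-0.46) and GH9C1 (-1.11). With 1 array of each replicate number in every genotype, the replicate block and the compared genotypes alone cannot change a difference of means (GH9B8 in gbf1 hy5 against wild type is 1.98 by construction), so they say nothing about its stability.

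With each array left out in turn, GH9B8 ranged from 1.84 to 2.11 in gbf1 hy5, 0.067 to 0.35 in gbf1 hyh and 0.403 to 0.53 in gbf1 against wild type, from 1.37 to 1.64 and from -0.399 to -0.12 in gbf1 hy5 and gbf1 hyh against gbf1, and from 1.63 to 1.91 in gbf1 hy5 against gbf1 hyh. In the same order GH9C1 ranged from -0.498 to -0.13, 0.55 to 0.92, 1.34 to 1.75, -2.06 to -1.66, -1.01 to -0.61 and -1.21 to -0.89, and GH9C2 from 0.16 to 0.83, -0.85 to -0.18, -0.72 to -0.046, 0.797 to 0.95, -0.23 to -0.034 and 0.91 to 1.11.

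The alternatives for single named genes of the lists were added after seeing the data. The counts of the 54 listed genes called by limma were small and moved easily, and the cause was not tested. With 1 array left out they ranged from 0 to 4 in gbf1 hy5, 0 to 3 in gbf1 hyh and 1 to 2 in gbf1 against wild type, from 2 to 5 and 0 to 2 in gbf1 hy5 and gbf1 hyh against gbf1, and from 0 to 2 in gbf1 hy5 against gbf1 hyh. In gbf1 hy5 against wild type (3) the count was 5 with the replicate block, quantile normalisation, the compared genotypes alone, array weights, or the arrays of high spike-in signal left out. In gbf1 hyh against wild type (2) it was 1 in the compared genotypes alone and with a trended and robust prior. In gbf1 against wild type (2) it was 1 in these 2 settings, with array weights and without the high spike-in arrays. In gbf1 hyh against gbf1 (2) it was 4 with the replicate block, 0 after quantile normalisation and in the compared genotypes alone, and 1 with the trended prior and with array weights. In gbf1 hy5 against gbf1 hyh (2) it was 5 with the replicate block and 1 in the compared genotypes alone and with the trended prior.

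By Spearman rank correlation, 0 of the 5 genes nearest to GH9B8, 3 of those nearest to GH9C1 and 0 of those nearest to GH9C2 stayed among the nearest. With 1 array left out, an alternative chosen after seeing the data, 1 to 4, 0 to 2 and 0 to 3 stayed, so these names depend on single arrays.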

Other observations

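The chromosomal neighbours of the 3 genes, a choice made after the differences were known, were read in the order of the reference table, taking the 5 nearest genes with a probe set of their own on each side. Over all probe sets 7.2% were called in at least 1 of the 6 comparisons, so with 10 genes 0 or 1 lies near that share. Of the 10 neighbours of GH9B8 none was called by limma in any comparison. Their differences ran from -0.28 to 0.40 in gbf1 hy5 against wild type, where GH9B8 differed by 1.98. In gbf1 hyh against gbf1 they ran from -0.88 to 0.35, where GH9B8 differed by -0.26. Of the 10 neighbours of GH9C1 none was called either. Their differences ran from -0.28 to 0.24 in gbf1 against wild type, where GH9C1 differed by 1.55. They ran wider in gbf1 hy5 against gbf1 hyh, from -0.85 (AT1G48840) to 0.11, where GH9C1 differed by -1.05. In gbf1 hyh against wild type they ran from -0.12 to 0.53, where GH9C1 differed by 0.74. Of the 10 neighbours of GH9C2 1 was called, AT1G64460, with 1.02 in gbf1 hyh against wild type, 0.89 in gbf1 hy5 against gbf1 and 1.59 in gbf1 hyh against gbf1. GH9C2 differed by -0.51, 0.87 and -0.13 in these comparisons.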
